A study of Arabidopsis thaliana with 26 samples.

Results

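The genes described here drive or build cell division in Arabidopsis thaliana. They are 5 genes of mitosis (AUR1, AUR2, TOPII, 3xHMG-box2 and BUBR1) and 2 of DNA replication (PRL and POLA3). The probe sets of AUR1 (253403_at), AUR2 (266655_at), TOPII (256864_at) and 3xHMG-box2 (254233_at) were taken by their identifiers, and those of BUBR1 (255790_at), PRL (255513_at) and POLA3 (249276_at) by their annotated names. In the order named above, the 7 loci are AT4G32830, AT2G25880, AT3G23890, AT4G23800, AT2G33560, AT4G02060 and AT5G41880. That gives 7 of the 13350 genes named by a probe set of their own, and all 7 passed the filter on low values. Total RNA of accession Col-0 was read on 26 ATH1 arrays, on which sets of short oligonucleotide probes each report a transcript. Developing leaves of insertions 19 to 21 were sampled at 2, 4, 12, 24, 48 and 96 h, with 4 arrays at each time. Mature leaves of plants treated for 24 h gave 2 arrays. All 7 groups share the treatment that the labels code E and the series title calls elevated CO2 with ambient light. Growth was in compost, at a temperature of 20 °C, a humidity of 50% and a day of 10 h of light, and the labels give the atmosphere of the growth room itself as normal. The sources used here state neither plant age in days, nor which leaves received the CO2, nor the clock time of sampling. Untreated plants were not analysed here, so the results follow time and leaf age and do not test the CO2 treatment. Hours of treatment and time of day cannot be told apart among the 2, 4 and 12 h samples, nor between these and the 24 h samples.

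A plant cell copies its DNA in S phase and separates the copies in mitosis, and many genes for each step are transcribed mainly in that phase. Young leaves contain dividing cells, and cells stop dividing as a leaf matures, often going on to copy DNA without mitosis. AUR1 and AUR2 are Aurora kinases of the plant alpha class, which act on the spindle and the new cell plate. TOPII, a type II topoisomerase, untangles DNA duplexes, and 3xHMG-box2 is a high mobility group protein that binds condensed mitotic chromosomes. BUBR1 belongs to the checkpoint that holds mitosis until kinetochores are attached to the spindle. PRL is MCM7, a subunit of the helicase that opens DNA at replication forks. POLA3 is a primase subunit of the DNA polymerase alpha complex, which starts new strands.

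Signals are given in the deposited linear units, which the scaling brings to a trimmed mean of 100 on each array, and as mean ± SD over arrays. Changes are log2 differences ± SE on the log2(value + 16) scale, and a gene is said to have risen or fallen only where limma's adjusted p was under 0.05 over the 16154 probe sets tested. Array medians lay between 39.7 and 47.4, Pearson's r across probe sets was 0.956 to 0.987 between replicates, and no columns were identical. The first replicates at 24 and 48 h stood apart in a cre spike-in signal of 4874 and 4858, against a median of 1612 over the arrays. Those arrays and the first replicate at 96 h also read 4449, 1571 and 1536 on a 25S ribosomal RNA probe set, where the median was 67.7. Of the leaf and tissue markers, RCA (Rubisco activase, a green leaf gene) read a mean of 2452 to 4062 in every group. CLV3, a shoot meristem gene, had group means of 2.16 to 3.85. The probe sequences were not used here, so cross-hybridisation between the close relatives AUR1 and AUR2 was not tested.

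AUR2 had the smallest p of the 7 genes in a test for any difference among the times. Its signal was 79.9, 74.01, 69.7 and 74.6 on the 4 arrays at 2 h and 152, 114, 118 and 138 at 4 h. At 12 h it was 96.9, 115, 136 and 116, and at 24 h 93.3, 93.2, 105 and 90.5. All arrays at 4, 12 and 24 h therefore lay above the 2 h arrays. AUR2 read 73.1, 73.3, 82.4 and 67.6 at 48 h, 31.1, 41.5, 43.6 and 37.6 at 96 h and 17.3 and 16.1 on the 2 arrays of mature leaves. In order of group mean the times ran 4, 12, 24, 2, 48 and 96 h, with mature leaves last. The 4, 12 and 24 h ranges overlapped in turn, as did those of 2 and 48 h, while 24 h lay above 2 h, and 96 h and mature leaves each lay apart. AUR2 rose by 0.69 ± 0.10 from 2 to 4 h (adjusted p = 9.4e-05) and fell by 0.73 ± 0.10 from 48 to 96 h (adjusted p = 0.00015).

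AUR1, its close relative, moved over a narrower range on the log2 scale in developing leaves. It read 165, 137, 142 and 128 at 2 h, 218, 197, 219 and 199 at 4 h and 167, 200.1, 232 and 206 at 12 h. The 2 h arrays all lay below those at 4 and 12 h. AUR1 read 183, 108, 172 and 173 at 24 h, 139, 164, 156 and 173 at 48 h and 92.4, 114, 132 and 101 at 96 h, and mature leaves gave 39.99 and 37.5. The second replicate at 24 h was the low array there, and the order of means (4, 12, 24, 48, 2 and 96 h, then mature leaves) had overlapping ranges between all neighbours up to 96 h. Only the mature leaves lay apart. AUR1 rose by 0.50 ± 0.13 from 2 to 4 h (adjusted p = 0.029) and was 0.45 ± 0.13 above its 2 h level at 12 h (adjusted p = 0.0073). Its fall from 12 to 24 h, of 0.33 ± 0.13 (adjusted p = 0.049), had overlapping groups. Without the second replicate at 24 h that change was -0.17 with an adjusted p of 0.27, and the call was lost in 18 of the 26 omissions of 1 array.

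TOPII peaked at 4 h alone. Its signal was 112, 142, 112 and 74.2 at 2 h and 229, 164, 189.5 and 223 at 4 h. At 12 h it was 82.5, 99.3, 148 and 92.6. The 4 h arrays lay above every array of the 2 and 12 h groups. TOPII read 76.3, 134, 143 and 136 at 24 h, 58.8, 104, 119.6 and 70.9 at 48 h and 57.98, 65.7, 65.7 and 52.3 at 96 h. In mature leaves it read 3.15 and 3.84, far under the 40th percentile of those arrays. Its means ran 4, 24, 2, 12, 48 and 96 h, then mature leaves, and only the 4 h group and the mature leaves were separated from their neighbours in that order. TOPII rose by 0.80 ± 0.19 from 2 to 4 h (adjusted p = 0.019) and fell by 0.85 ± 0.19 from 4 to 12 h (adjusted p = 0.00099). At 12 h it stood -0.05 ± 0.19 from its 2 h level (adjusted p = 0.88).

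3xHMG-box2 also had its highest signals at 4 h. It read 379, 348, 303 and 454 at 2 h and 823, 567, 509.6 and 668 at 4 h. At 12 h it read 390.4, 286, 418 and 360.0. All 4 h arrays were above all 2 h and 12 h arrays, and the 2 and 12 h ranges overlapped. 3xHMG-box2 then read 176, 250.3, 253 and 277 at 24 h, 127, 163, 235 and 191 at 48 h and 117, 146, 174 and 142 at 96 h. Mature leaves gave 20.4 and 27.3. Its means stepped down in the order 4, 2, 12, 24, 48 and 96 h, then mature leaves. Neighbours in that order overlapped at 2 with 12 h, 24 with 48 h and 48 with 96 h, and not elsewhere. It rose by 0.76 ± 0.17 from 2 to 4 h (adjusted p = 0.0097), fell by 0.78 ± 0.17 to 12 h (adjusted p = 0.00065) and by a further 0.58 ± 0.17 to 24 h (adjusted p = 0.0092).

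BUBR1 had its highest mean at 4 h, but no called change from 2 h. It read 42.4, 40.6, 36.2 and 46.1 at 2 h and 79.9, 52.4, 50.5 and 44.4 at 4 h. All 4 h arrays except replicate 4 exceeded every 2 h array, and its 4 h change of 0.32 ± 0.14 missed the threshold (adjusted p = 0.39). BUBR1 read 44.2, 38.3, 44.9 and 50.5 at 12 h, 29.1, 35.9, 56.2 and 45.4 at 24 h and 28.6, 29.8, 35.01 and 24.99 at 48 h. At 96 h it read 14.1, 18.9, 21.3 and 22.4, and in mature leaves 3.34 and 3.99. The order of its means was 4, 12, 24 and 2 h with overlapping ranges, then 48 h, 96 h and mature leaves, each apart from the group before it.

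**Figure D1:**
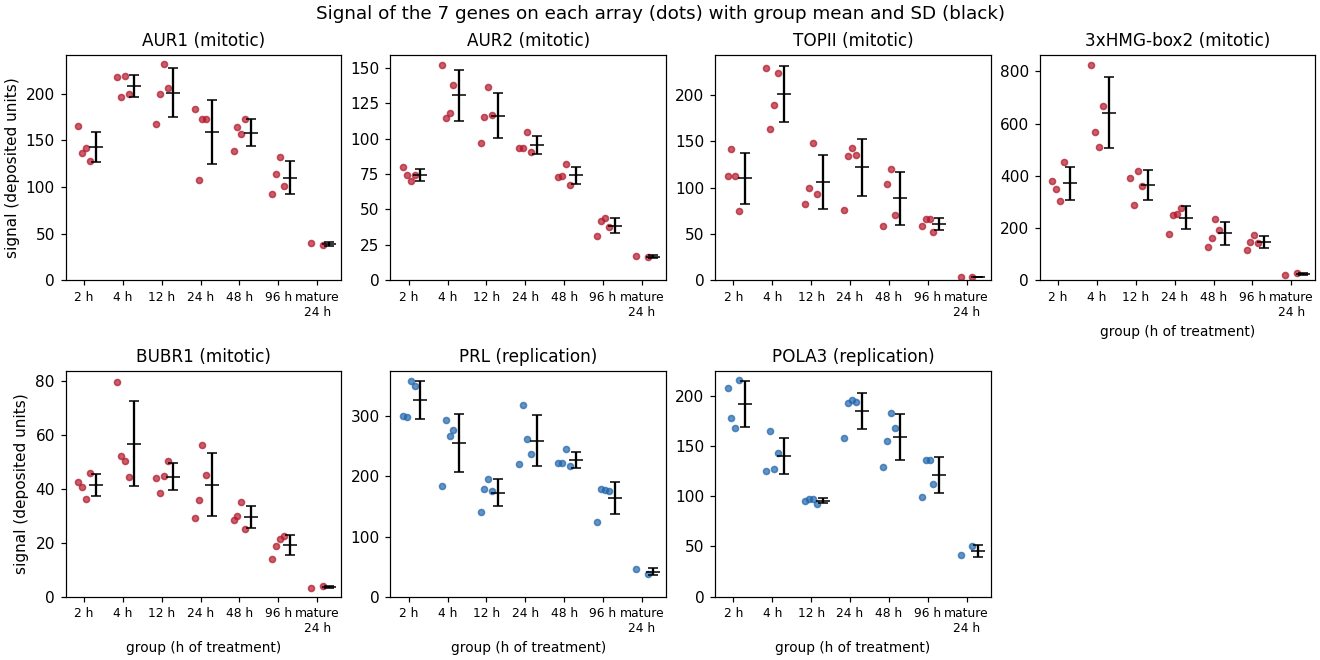
Signal of each gene on every array (dots), in deposited units on a linear axis that starts at 0, by group, with the group mean and SD in black; mitotic genes are red and replication genes blue. The 4 h arrays of AUR2, TOPII and 3xHMG-box2 lie above all 2 h arrays, while PRL and POLA3 have their highest mean at 2 h and dip at 12 h.

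The replication genes ran a different course. PRL read 299.9, 299, 358 and 351 at 2 h and 184, 293, 267 and 277 at 4 h. At 12 h it read 141, 179, 196 and 176, every array below the 2 h range. PRL read 221, 319, 261 and 237 at 24 h, above all 12 h arrays, and 223, 222, 246 and 217 at 48 h. It read 125, 179, 177 and 176 at 96 h and 45.4 and 38.1 in mature leaves. Its means ran 2, 24, 4 and 48 h, then 12 and 96 h, then mature leaves, and its neighbours in that order overlapped except 48 h with 12 h and 96 h with mature leaves. PRL fell by 0.86 ± 0.13 from 2 to 12 h (adjusted p = 9.1e-06) and rose by 0.54 ± 0.13 from 12 to 24 h (adjusted p = 0.0024).

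POLA3 had the tightest minimum at 12 h. It read 208, 178, 168 and 216 at 2 h, 125, 165, 127 and 143 at 4 h and 95.1, 97.6, 97.4 and 92.1 at 12 h. The 12 h mean was 95.6 ± 2.57, and all its arrays lay under every other array of developing leaves. POLA3 read 158, 193, 196 and 194 at 24 h, 129.6, 155, 183 and 168 at 48 h and 99.6, 136, 136 and 113 at 96 h. Mature leaves gave 41.1 and 49.98. Its means ran 2, 24, 48, 4 and 96 h with overlapping neighbours, then 12 h and mature leaves, each apart. POLA3 fell by 0.89 ± 0.11 from 2 to 12 h (adjusted p = 4.4e-07) and rose by 0.85 ± 0.11 from 12 to 24 h (adjusted p = 1.1e-06).

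All 7 genes differed among the 6 times in developing leaves by limma's F test, with adjusted p from 4.1e-11 (AUR2) to 2.2e-05 (AUR1). That test called 50.0% of all probe sets, so the count alone sets these genes little apart from the table. The pairwise comparisons below share arrays with each other, and their counts are not independent. The share of all probe sets whose groups do not overlap is not given here, so separate groups are only a description of the arrays.

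Between 2 and 4 h, 4 mitotic genes rose (AUR1, AUR2, TOPII and 3xHMG-box2) and 1 replication gene, POLA3, fell. The same comparison called 1.36% of all probe sets higher and 0.681% lower. POLA3 fell by 0.41 ± 0.11 (adjusted p = 0.047), and PRL changed by -0.35 ± 0.13 without passing (adjusted p = 0.25), although its groups did not overlap. The median change was 0.50 over the 7 genes and -0.01 over all probe sets tested. These calls rest on few arrays: without the first replicate at 4 h only AUR2 passed. The number called was 2 without replicate 4 of either time and 3 without replicate 2 of 2 h or replicate 3 of either time. POLA3 lost its call in 16 of the 26 omissions of 1 array (adjusted p up to 0.19), with an added 1, with no filter and with only the 2 groups. AUR2 passed in every omission.

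By 12 h the genes had separated. Against 4 h, TOPII, 3xHMG-box2, PRL and POLA3 fell and none of the 7 rose, where 15.8% of all probe sets were called higher and 12.8% lower. PRL fell by 0.51 ± 0.13 (adjusted p = 0.0038), with overlapping groups, and POLA3 by 0.48 ± 0.11 (adjusted p = 0.0016). AUR1 changed by -0.05 ± 0.13 and AUR2 by -0.15 ± 0.10, neither past the threshold. Against 2 h, both Aurora kinases were higher and both replication genes lower, each with groups that did not overlap. AUR2 was 0.54 ± 0.10 higher (adjusted p = 0.00015). In that comparison 15.1% of probe sets were called higher and 13.5% lower, and the medians were -0.03 over the 7 genes and 0.03 over all. Marker genes moved too. WRKY53, a leaf senescence gene, rose from a mean of 15.3 at 2 h to 27.5 at 12 h (adjusted p = 0.021). Between 4 and 12 h SPCH, which starts the stomatal lineage, fell from 110.2 to 79.3 (adjusted p = 0.047), and SWEET11, a phloem sucrose transporter, rose from 83.4 to 114 (adjusted p = 0.024). Their part in these results was not tested.

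From 12 to 24 h both replication genes turned upward. PRL and POLA3 rose and 3xHMG-box2 and AUR1 fell, against 13.0% of all probe sets called higher and 16.2% lower. TOPII changed by 0.18 ± 0.19, AUR2 by -0.24 ± 0.10 and BUBR1 by -0.09 ± 0.14, none past the threshold (adjusted p = 0.53, 0.077 and 0.69). At 24 h POLA3 was near its 2 h level, -0.05 ± 0.11 from it (adjusted p = 0.87). PRL had a mean of 259.6 at 24 h against 327 at 2 h, a change of -0.32 ± 0.13. That change missed the threshold (adjusted p = 0.13) but passed with array weights. Only 3xHMG-box2 passed between 24 and 2 h among the 7, lower by 0.61 ± 0.17 (adjusted p = 0.019). There 4.33% of all probe sets were called higher and 4.88% lower. The 3xHMG-box2 call was lost without replicate 1 of 24 h or replicate 4 of 2 h (adjusted p up to 0.097), and without the second at 24 h PRL passed as well. RCA, whose means were 2452 at 12 h and 4062 at 24 h (adjusted p = 0.0027), SPCH (79.3 and 120.2, adjusted p = 0.014), and TRY, a trichome gene (39.3 and 58.9, adjusted p = 0.014), moved between 12 and 24 h as well. Their part was not tested.

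**Figure D2:**
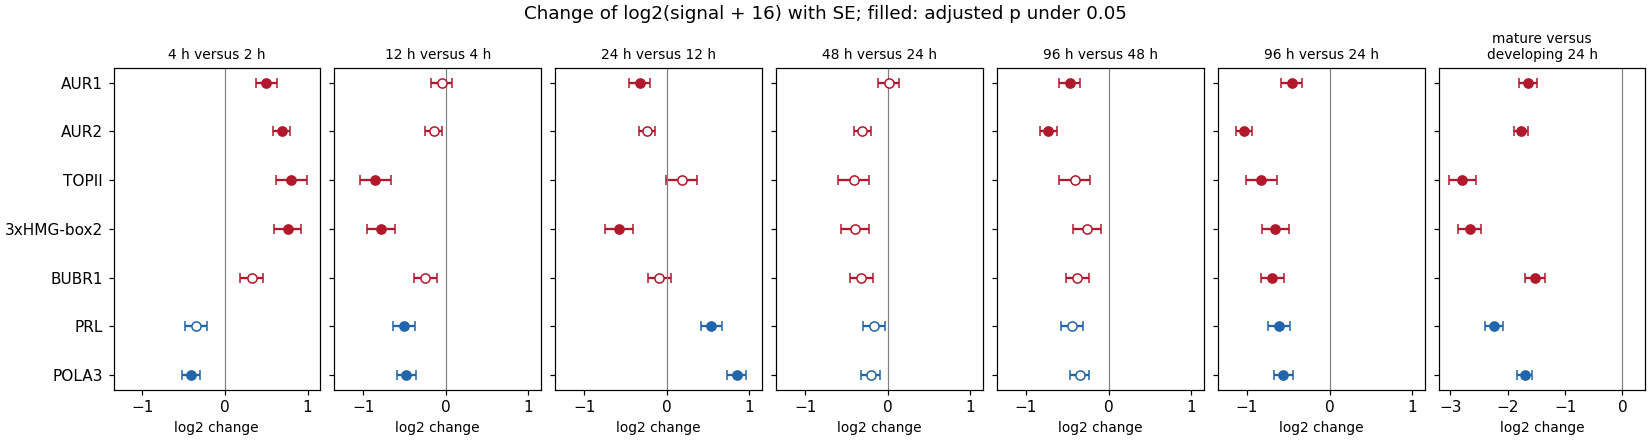
Log2 change of each gene in 7 comparisons, on the log2(value + 16) scale with bars of 1 SE; filled dots passed an adjusted p of 0.05 in limma, and mitotic genes are red and replication genes blue. From 12 to 24 h PRL and POLA3 lie above 0 and 3xHMG-box2 and AUR1 below it, and all 7 genes lie below 0 at 96 h against 24 h and in mature leaves (whose panel has a wider axis).

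The split between the classes was summarised as the mean log2(value + 16) of the 5 mitotic genes minus that of the 2 replication genes on each array. Signals of different probe sets have no common scale, so only the movement of this difference between groups has meaning, and it is given as a description with no test. It was -1.02 ± 0.14 at 2 h and -0.02 ± 0.37 at 4 h. The 4 arrays at 4 h spread widely, at 0.51, -0.38, -0.11 and -0.10, and replicate 1 was the highest. At 12 h it was 0.05 ± 0.11. The difference had thus moved up by 1.00 at 4 h and 1.07 at 12 h, where the pooled SD within groups was 0.186. It was -0.85 ± 0.19 at 24 h, -0.95 ± 0.08 at 48 h and -0.998 ± 0.08 at 96 h, and -0.95 ± 0.02 in mature leaves. The 2 h range (-1.19 to -0.87) and the 24 h range (-1.11 to -0.71) overlapped, and none of the 4 and 12 h arrays (lowest -0.38) reached them. Individual mitotic genes did not contribute alike at 12 h, when only the Aurora kinases were above their 2 h levels and the 3 others were within 0.08 log2 of theirs. From 2 to 12 h the mean of the 2 replication genes went from 8.06 to 7.18. The mean of the mitotic genes went only from 7.04 to 7.23. Other genes of division, described below, did not show the split at 12 h. Their median change from 2 h was -0.30 for 6 mitotic and -0.34 for 2 replication genes. At 4 h these medians were 0.35 and -0.18.

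**Figure D3:**
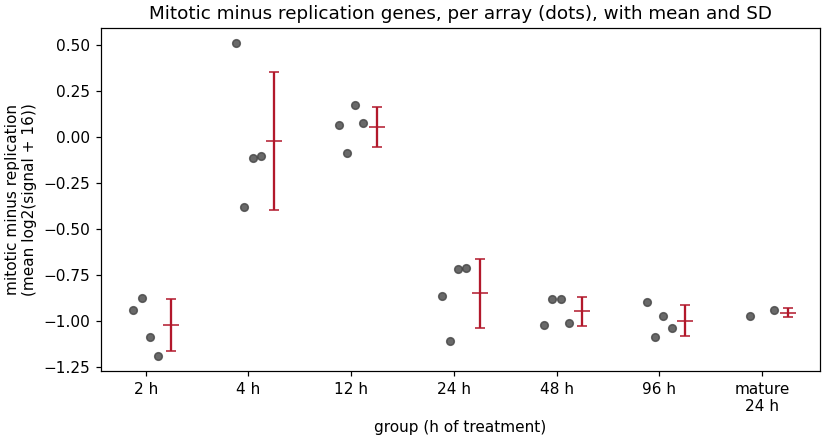
Mean log2(value + 16) of the 5 mitotic genes minus that of the 2 replication genes, on each array (dots) with the group mean and SD. The 4 h arrays lie between -0.38 and 0.51 and the 12 h arrays between -0.09 and 0.17, above all arrays of the other groups.

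After 24 h calls were few until 96 h. From 24 to 48 h none of the 7 genes passed and 6 of 7 changes were negative, with a median of -0.31 against 0.02 over all probe sets. limma called 0% of the table higher and 0% lower there, although 1655 probe sets had an unadjusted p under 0.05, among them 4 of the mitotic genes. AUR2 changed by -0.31 ± 0.10 (adjusted p = 0.28), with groups that did not overlap. From 48 to 96 h AUR1 fell by 0.47 ± 0.13 (adjusted p = 0.034), and AUR2 fell too, while 2.21% of probe sets were called higher and 1.32% lower. All 7 changes in that interval were negative. BUBR1 changed by -0.38 ± 0.14 and PRL by -0.45 ± 0.13 with groups apart, but neither passed (adjusted p = 0.13 and 0.055). PRL did pass with a stricter filter, quantile normalisation, array weights or replicate number as a block (the replicate block), and in 5 omissions of 1 array. The number called was 4 without replicate 2 of 96 h. It was 1 without replicate 1 or 4 of 96 h or replicate 2, 3 or 4 of 48 h.

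At 96 h all 7 genes were lower than at 24 h, where the comparison called 7.74% of all probe sets higher and 7.23% lower. AUR2 fell by 1.04 ± 0.10 (adjusted p = 1.8e-07), from 95.5 ± 6.37 to 38.5 ± 5.48. TOPII fell by 0.83 ± 0.19 (adjusted p = 0.0037) and BUBR1 by 0.70 ± 0.14 (adjusted p = 0.0011). The replication genes fell by 0.61 ± 0.13 (PRL, adjusted p = 0.0020) and 0.56 ± 0.11 (POLA3, adjusted p = 0.0011). 3xHMG-box2 fell by 0.66 ± 0.17 (adjusted p = 0.0080) and AUR1 by 0.46 ± 0.13 (adjusted p = 0.013). AUR1 had overlapping groups, and it lost its call without the first replicate at 96 h (adjusted p = 0.062). The median change was -0.66 over the 7 genes and -0.03 over all. The sizes for the dimmer genes depend on the added constant: with 64 in place of 16 the change was -0.64 for AUR2 and -0.34 for BUBR1, and with 1 it was -1.06 for BUBR1, each still past the threshold. The class difference moved by -0.15, less than its pooled SD.

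Some cell type markers changed over the same interval, while RCA, WRKY53 and the guard cell gene FMA did not pass (adjusted p = 0.52, 0.0625 and 0.48). The stomatal lineage list had a probe set for 2 of its 5 genes, SPCH and MUTE, and their summed signal ranged from 92.1 to 171 at 24 h and from 67.1 to 95.4 at 96 h. SPCH had means of 120.2 and 65.3 (adjusted p = 0.0032), and MUTE did not pass the filter on low values. SWEET11 (1 of 4 phloem genes with a probe set) ranged from 86.6 to 138 at 24 h and from 144 to 186 at 96 h (adjusted p = 0.0036). TRY (1 of 3 trichome genes) ranged from 50.3 to 66.5 and from 70.4 to 121 (adjusted p = 0.019). EXP7, the root hair expansin and 1 of 3 root genes, ranged from 25.8 to 33.7 and from 5.23 to 20.0 (adjusted p = 0.013). On every 96 h array EXP7 lay below the 40th percentile. None of these markers read 0, and their part in the falls was not tested. In such bulk samples fewer dividing cells and less RNA per dividing cell cannot be told apart.

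Mature leaves had the lowest level of every gene. Against developing leaves at 24 h, all 7 fell, in a comparison that called 24.1% of all probe sets higher and 30.7% lower. TOPII went from 122 ± 30.8 to 3.50 ± 0.488, a change of -2.79 ± 0.23 (adjusted p = 7.3e-11), and 3xHMG-box2 from 239 ± 43.7 to 23.9 ± 4.92, a change of -2.66 ± 0.20 (adjusted p = 1.6e-11). PRL went from 259.6 ± 43.1 to 41.8 ± 5.21, a change of -2.24 ± 0.16 (adjusted p = 4.2e-12). The changes of the 4 other genes were between -1.77 (AUR2) and -1.53 (BUBR1). TOPII, BUBR1 and AUR2 were below the 40th percentile of both mature arrays, and the added 16 compresses the changes of such dim genes, so with an added 1 the change was -4.74 for TOPII and -3.15 for BUBR1, and with an added 64 it was -1.45 and -0.64. With 64 it was -0.98 for AUR2 and -1.77 for 3xHMG-box2, and all of these passed the threshold. The median change was -1.77 over the 7 genes and -0.10 over all probe sets, and each of the 7 lay below that general shift. The class difference moved by -0.10 between these groups, but the sign depends on the added constant (-0.82 with 1 and 0.21 with 64).

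Several markers also differed between mature and developing leaves. The summed signal of SPCH and MUTE ranged from 4.72 to 5.63, and SPCH was lower than in developing leaves (adjusted p = 6.0e-12). SWEET11 ranged from 611 to 641, TRY from 105 to 148, and WRKY53 (1 of 3 senescence genes with a probe set) from 95.4 to 130.2, all higher than in developing leaves at 24 h (adjusted p = 7.0e-13, 2.4e-05 and 1.2e-08). FMA, a guard cell factor and 1 of 4 such genes with a probe set, had means of 35.7 and 60.6 (adjusted p = 0.0018). EXP7 ranged from 7.18 to 23.4 and was lower than in developing leaves (adjusted p = 0.023). RCA, 1 of 4 green leaf genes, had means of 3905 and 4062 (adjusted p = 0.93). The part of these cell types in the falls was not tested.

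Other genes of division were read from lists of 47 mitotic genes, 42 replication genes and 30 cell cycle regulators, of which 6, 2 and 1 had a probe set of their own under an agreeing name. Between 2 and 4 h, 1 of the 6 mitotic genes rose and none fell, where 1.36% of all probe sets were called higher and 0.681% lower. It was WYR, the plant counterpart of INCENP and a partner of Aurora kinases, with means of 24.2 ± 3.43 and 38.8 ± 2.99 (change 0.45 ± 0.11, adjusted p = 0.020). WYR lay above the 40th percentile of its array only at 4 h, so it passed the filter through that group alone. Its changes to and from 4 h are therefore only a description and lend no support to a peak there. From 4 to 12 h, 5 of the 6 fell, against 12.8% of all probe sets, led by BUB3.1, a checkpoint protein, from 198 ± 19.8 to 102 ± 23.8 (change -0.87 ± 0.13, adjusted p = 7.9e-06). WYR and BUB3.2, a relative of BUB3.1, followed with changes of -0.60 ± 0.11 and -0.58 ± 0.11. Against 2 h, where 13.5% of all were called lower, 3 of the 6 were lower at 12 h (HTR12, BUB3.2 and BUB3.1, changes of -0.47 to -0.45) and none higher. HTR12, the centromeric histone CENH3, rose again from 34.5 ± 4.37 to 49.1 ± 13.2 by 24 h (adjusted p = 0.049). Its groups overlapped, and 13.0% of all probe sets were called higher there. The 24 h arrays read 67.9, 37.2, 46.4 and 45.0, the highest on the first replicate, which had the high spike-in signal. BUB3.2 was lower at 24 h than at 2 h (-0.43 ± 0.11, adjusted p = 0.014), where 4.88% of all were called lower.

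Late in the series some of the 6 mitotic genes fell. From 48 to 96 h 2 of 6 fell, where 1.32% of all probe sets were called lower, AUR3 (-0.45 ± 0.11) and 3xHMG-box1 (-0.62 ± 0.15), while from 24 to 96 h 4 of 6 fell against 7.23% of all. The largest change was in 3xHMG-box1, from 75.7 ± 9.68 to 42.3 ± 9.59 (change -0.66 ± 0.15, adjusted p = 0.0027). AUR3 is the Aurora kinase of the plant beta class, which binds centromeric chromatin, and 3xHMG-box1 is the closest relative of 3xHMG-box2. All 6 were lower in mature leaves, where 30.7% of all probe sets were, 3xHMG-box1 most at -1.65 ± 0.18, with BUB3.1 at -1.25 ± 0.16 and AUR3 at -1.13 ± 0.13. Of the 2 other replication genes, ICU2, the catalytic subunit of DNA polymerase alpha, was lower at 12 h than at 2 h, where 13.5% of all probe sets were. Its means were 44.3 ± 4.20 and 65.96 ± 5.04 (change -0.44 ± 0.11, adjusted p = 0.0028). PSF2, a GINS subunit of the replicative helicase, changed by -0.24 ± 0.12 between those times without passing (adjusted p = 0.16). Neither gene rose from 12 to 24 h, with changes of 0.11 ± 0.11 for ICU2 and -0.002 ± 0.12 for PSF2 (adjusted p = 0.49 and 0.99). PSF2 fell from 54.6 ± 7.07 at 24 h to 39.2 ± 6.26 at 96 h (-0.36 ± 0.12), where 7.23% of all probe sets were called lower. That call only just passed (adjusted p = 0.0496). Both genes were lower in mature leaves. SIM, an inhibitor of cyclin-dependent kinases that promotes DNA replication without mitosis in leaf hairs, was the only regulator read. Its means were 156 ± 17.4 at 4 h, 206 ± 41.6 at 12 h and 142 ± 17.4 at 24 h. The change to 12 h was 0.35 ± 0.13 (adjusted p = 0.047), with overlapping groups, where 15.8% of all probe sets were called higher. The change to 24 h was -0.47 ± 0.13 (adjusted p = 0.0075), where 16.2% were called lower. In mature leaves SIM had a mean of 32.3 ± 3.86.

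**Figure D4:**
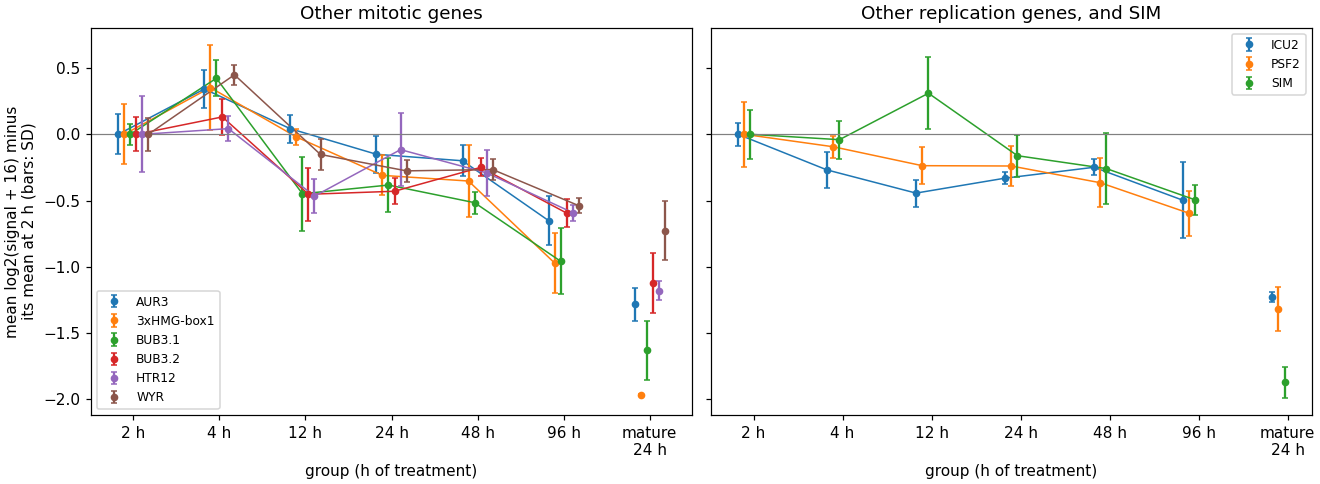
Mean log2(value + 16) of the 6 further mitotic genes (left) and of ICU2, PSF2 and SIM (right) minus the mean of the same gene at 2 h, by group, with bars of 1 SD over arrays. All 9 genes are lowest in mature leaves, the 6 mitotic genes have their highest means at 4 h (HTR12 close to its 2 h mean), and SIM is highest at 12 h.

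The genes closest in pattern to each class were sought among 8977 tested probe sets of 1 gene each. The measure was Pearson's r with the mean standardised profile of the class over the 26 arrays. Such an r is a description, since the arrays share the fall from developing to mature leaves. The 5 nearest to the mitotic profile were AT4G15830 (r = 0.98), AT5G66230 (0.98), AT2G16270 (0.97), AT5G45700 (0.97) and AT3G20150 (0.96). Over the 24 arrays of developing leaves their r was 0.92 to 0.95. AT4G15830 had means of 174 at 2 h, 293 at 4 h, 208 at 12 h, 199 at 24 h, 147 at 48 h, 101 at 96 h and 25.1 in mature leaves, the same order as AUR2. The 5 nearest to the replication profile were AT4G28310 (r = 0.96), AT2G28600 (0.95), AT5G54970 (0.95), AT5G15520 (0.95) and POLD3 (0.95), with r of 0.84 to 0.90 over developing leaves alone. POLD3, a subunit of DNA polymerase delta, had means of 86.5 at 2 h, 69.6 at 4 h, 47.2 at 12 h and 67.9 at 24 h, low at 12 h as in PRL and POLA3. All these genes were picked for likeness to a class, so their resemblance to its members follows from that choice.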

How the data were processed

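The authors deposited 1 linear signal intensity per probe set and array, and the submitters' processing notes name MAS5 without a version. Each deposited intensity column had a mean of 100 after 2% of values were trimmed at either end, and no further scaling was applied. Values were analysed on the log2 scale as log2(deposited value + 16). Of 22810 probe sets, 64 were controls. Tests were run on the 16154 probe sets that lay above their array's 40th percentile on 2 or more arrays. A linear model of 7 group means over the 26 arrays was fitted by lmFit, then eBayes with a mean trend, of limma 3.58.1 under R 4.3.3. P-values for 9 contrasts and an F test over the 6 developing times were two-sided for contrasts and adjusted by the Benjamini-Hochberg method over all probe sets tested, with a threshold of 0.05. The code was tested on simulated data. The labels do not say that replicates came from separate plants, so p-values measure only how these samples spread, perhaps for technical reasons alone, and the number of arrays limits the precision.

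Gene names are those of the platform annotation after an update from a TAIR10.1 gene table. Of all probe sets, 13513 had 1 gene (13436 matched the gene table), 503 had several and 8794 were unlisted, so most genes of the lists are not named here. A list gene was used only where that table gave it the same name. Genes named besides the 7 were, per list and comparison, up to 3 called genes with the largest change, the 5 nearest in pattern to each class, and tissue markers. The genes and lists were chosen with earlier results of these data known. Alternatives were the added constant, the filter, quantile normalisation, array weights, fits of only the groups compared, a replicate block, and the omission of arrays.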

Additional observations from a re-analysis of the deposited data

Results flagged for a closer look

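For each of the 7 genes the 4 arrays of each developing group were examined for a value standing apart by Dixon's test. Of 42 such groups 4 held one, where chance flags about 1 in 20. AUR1 read 108 on the second replicate at 24 h, and 172 to 183 on the others. TOPII read 76.3 on the first replicate at 24 h, and 134 to 143 on the others. POLA3 read 158 on that same array, and 193 to 196 on the others. PRL read 125 on the first replicate at 96 h, and 176 to 179 on the others. The first replicates at 24 and 96 h are among the arrays with high 25S ribosomal RNA signals (4449 and 1536). That 96 h array was also the lowest of its group for AUR1, AUR2, 3xHMG-box2, BUBR1 and POLA3. Whether RNA or array quality lies behind these values was not tested.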

How the results depend on the processing

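With an added constant of 1 or 64, no filter, a stricter filter, quantile normalisation, array weights, fits of only the groups compared, a replicate block and the omission of arrays, no change of these genes that passed the test turned its direction. The number of genes called for 24 h against 2 h was 1, and became 2 with quantile normalisation, 3 with array weights and 0 without the 2 arrays of high spike-in signal. For 48 h against 24 h it was 0 and became 2 with array weights. For 96 h against 48 h it was 2 and became 5 with array weights and 1 with no filter or with only those groups. AUR1 lost its fall from 12 to 24 h with an added 1, no filter, quantile normalisation, array weights or only those groups, and its fall from 24 to 96 h with only those groups. POLA3 lost its fall from 2 to 4 h with an added 1, no filter or only those groups. Omission of 1 array gave 1 to 5 genes for 4 h against 2 h (5 with all arrays), 0 to 2 for 24 h against 2 h, 1 to 4 for 96 h against 48 h, 3 to 5 for 24 h against 12 h (4), and 6 to 7 for 96 h against 24 h (7). It left the counts at 4 for 12 h against 4 h and against 2 h, and at 7 for mature leaves and the F test. Called changes that 1 omission could end include AUR1 (adjusted p up to 0.11), TOPII (0.11), 3xHMG-box2 (0.058) and POLA3 (0.19) at 4 h, and AUR1 at 96 h against 48 h (0.16). The class difference moved less with an added 64, by 0.79 from 2 to 4 h, 0.84 from 2 to 12 h and -0.71 from 12 to 24 h. Between developing and mature leaves it moved by -0.82 with an added 1, by 0.21 with 64 and by 0.07 without TOPII. The class changes for 4 h against 2 h and 24 h against 12 h were added after the data were seen.

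Same-numbered arrays leaned together but not in every pair: 23 of 60 pairs correlated over 0.1 (median r = 0.07), against 25 of 180 pairs of different numbers (median r = -0.01), and 14 of 24 arrays correlated best with their own number. A fit with the replicate block called 3 genes for 96 h against 48 h, adding PRL, and changed no other call of the 7. Over the whole table, array weights called 565 probe sets for 4 h against 2 h (330 without), 500 for 48 h against 24 h (0 without) and 975 for 96 h against 48 h (571 without). Fits of only the groups compared called 931 for 24 h against 2 h (1487 with all groups), 1565 for 96 h against 24 h (2419) and 202 for 96 h against 48 h (571). For 48 h against 24 h the count was 3 with an added 64, 19 with the replicate block and 15 without the 2 arrays of high spike-in signal, and without those arrays 379 passed for 96 h against 48 h. The causes of these shifts were not tested. TOPII, BUBR1 and AUR2 lie below the 40th percentile in mature leaves, which limits the size of their falls.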
